A study of Mus musculus with 13 samples.

Results

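Smooth-muscle and mesenchymal-like cells (SMMC) of mouse hindlimb muscle were compared before and after 3 days of culture. SMMC is the submitters' name for cells that were sorted free of CD31, CD45, Sca1 and VCAM1 but positive for the integrin ITGA7. The 2 groups were 3 bulk RNA-seq libraries of freshly sorted SMMC and 3 of SMMC that had been sorted in the same way, cultured for 3 days and harvested while labelled as proliferating. All came from wild-type C57BL/6 mice aged 2 months, and no other allele or agent is named. These 6 libraries are 6 of the 13 samples of the series. Libraries of differentiating SMMC (n = 3) and of freshly sorted muscle stem cells (MuSC, n = 2) appear below only as levels, and 2 single-cell samples were not used. Of the 24411 genes listed, the 11743 with at least 1 FPKM (mapped fragments per unit of transcript length and of library size) in 3 or more of the 6 libraries were tested. Of the rest, 4048 were at 0 in all 6 and 8620 were above 0 somewhere but too low. The labels number the libraries, without stating whether each is a different animal or culture, and name no medium. The p-values therefore measure only the spread between these libraries, which may be technical. Where 3 values of a group are given, they follow replicates 1, 2 and 3.

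Sorting takes muscle apart with enzymes for hours, and cells lifted out of tissue are known to switch on immediate early, heat shock and cytokine genes before RNA can be made from them. Cells of adult muscle are otherwise mostly out of the cell cycle, whereas culture with serum drives those that can divide into S phase and mitosis. Cells of the skeletal lineage that divide in culture carry Myod1, then leave the cycle, switch on Myog and build sarcomeres. In bulk RNA, fewer cells of a type and less RNA per cell cannot be told apart, so every change below is one of the whole population harvested.

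After 3 days of culture, genes of cell division and of embryonic muscle were higher, and genes of mural cells, tendon, nerve support, connective tissue, immediate early response and cytokines were mostly lower. All 28 replication genes and all 30 spindle genes tested rose, and 21 of 22 sarcomere genes of embryonic and slow types did so. All 21 pericyte genes tested fell, as did 14 of 16 tenocyte, 15 of 16 collagen and all 22 MHC class I and interferon genes. These counts stand against a broad background: limma called 8333 of 11743 genes (71.0%), 4204 of them higher (35.8%) and 4129 lower (35.2%) in the proliferating libraries. At 2-fold or more, 3169 (27.0%) were higher and 3318 (28.3%) lower. At 8-fold or more, 382 (3.25%) were higher and 769 (6.55%) lower. The groups did not overlap for 4367 genes that were higher (37.2%) and 4323 that were lower (36.8%). A gene can pass the filter through 1 group alone, which then sets the direction of its change. Of the calls, 1296 lower genes were under 1 FPKM in every proliferating library and 434 higher ones in every fresh library. Lists in both directions hold such genes, among them the spindle, embryonic sarcomere, pericyte and blood cell lists. For such genes a count of members higher or lower does not bear on the direction. With a minimum of 10 FPKM in place of 1, 60.7% of the 4975 calls were higher, against 50.5% of the 8333. The median log2 change of all tested genes was 0.00, and the median size of a change, whatever its sign, was 1.15. Changes are given on the log2(FPKM + 1) scale, which understates those of low genes.

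**Figure D1:**
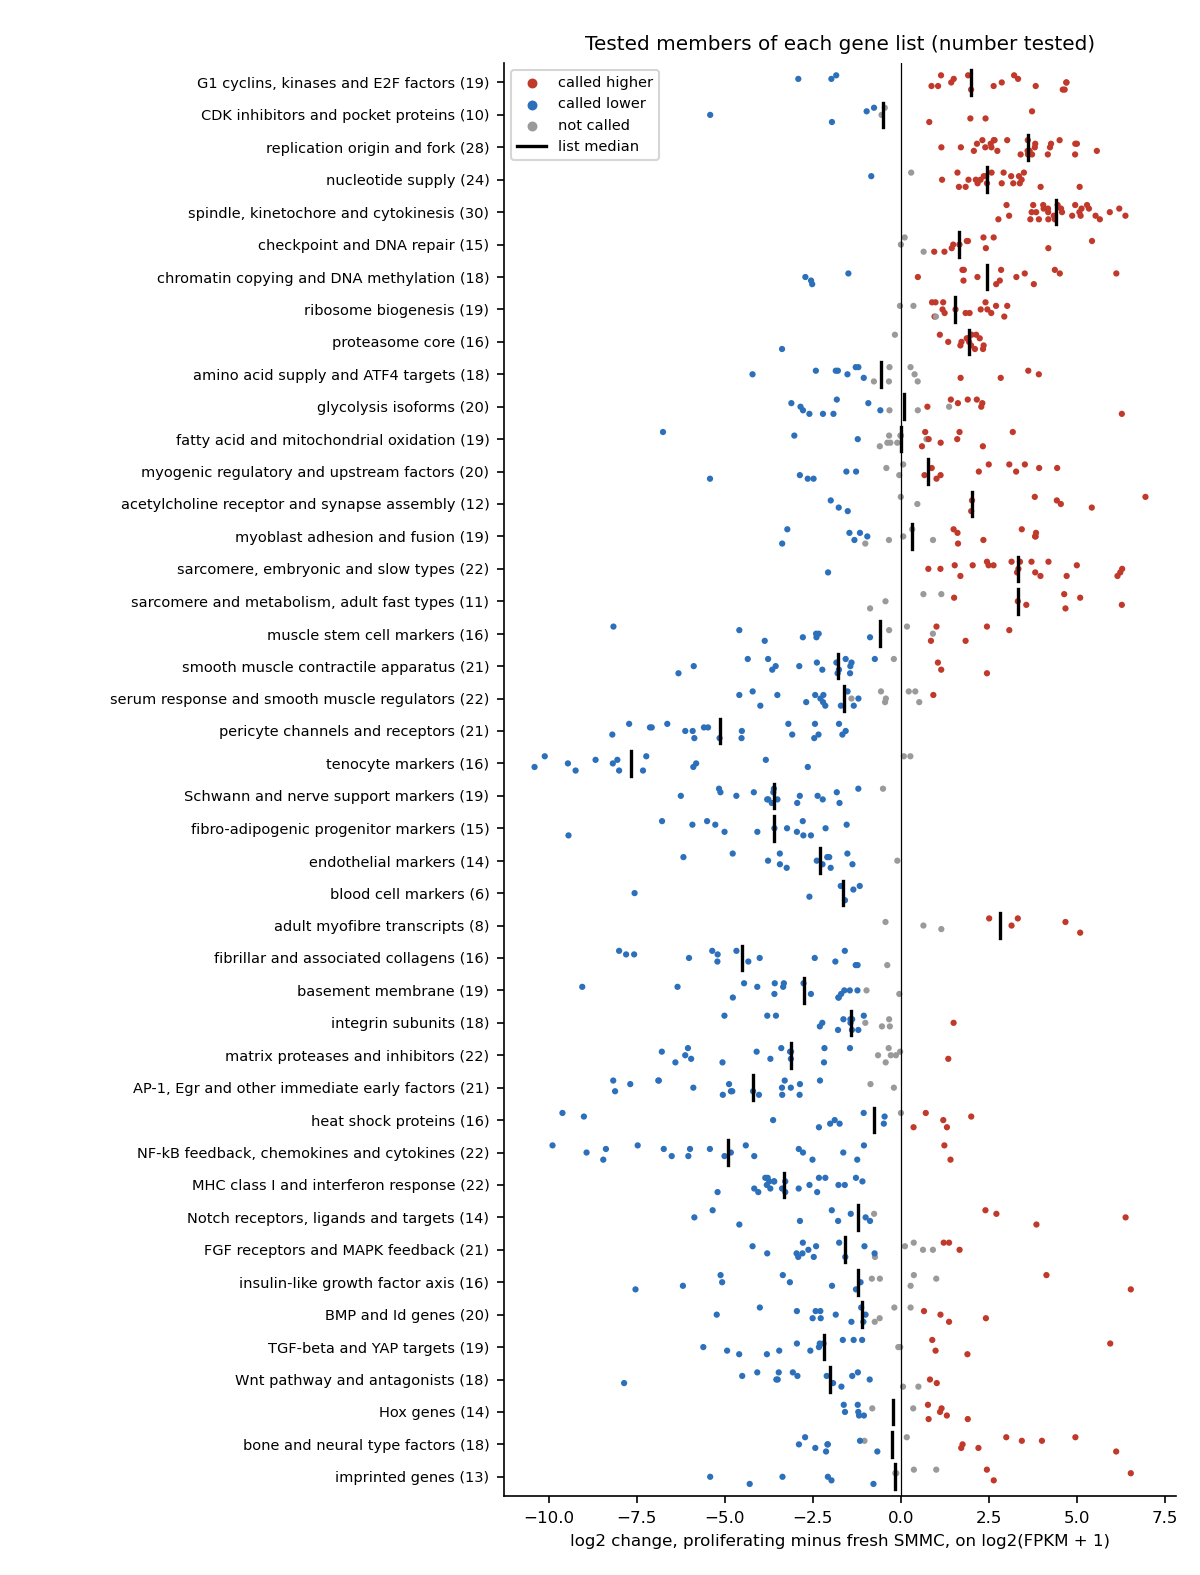
Log2 change of each tested member (points) of 44 gene lists, proliferating minus fresh SMMC on log2(FPKM + 1), coloured by its call at an adjusted p under 0.05, with the list median as a bar. The 30 spindle genes all lie right of 0 with a median of 4.41, and the 16 tenocyte genes have a median of -7.67.

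The libraries differed within groups in ways that touch these results. Spearman's rho across the tested genes ran from 0.942 to 0.967 between fresh, from 0.956 to 0.982 between proliferating and from 0.515 to 0.557 across groups, as a description, since genes are not independent. Fresh replicate 1 was the highest of its group in 15 of 16 tenocyte, 13 of 16 collagen and 11 of 15 fibro-adipogenic genes and the lowest in 20 of 21 pericyte genes, where fresh replicate 3 was highest in all 21. Proliferating replicate 3 was the highest of its group in 20 of 22 embryonic and slow sarcomere genes. Transcript length also moved with the comparison. For 11329 tested genes (96.5%) a length could be taken as the longest spliced transcript of GENCODE M21. The genes were put in 4 classes of equal size by length. In the shortest class, of 54 to 2175 bases, 1474 genes were called higher and 712 lower, with a median log2 change of 0.67. In the longest, of 4835 bases or more, 493 were called higher and 1467 lower, with a median of -0.73. Proliferating replicate 1 stood apart in the same sense, at a median of 0.24 above the mean of the other 2 proliferating libraries in the shortest class and -0.27 in the longest, on the log2 scale. With the length trend of each library removed, a setting added after seeing the data, 3999 genes were higher and 3870 lower. Of the 8333 calls, 6864 were also called there, 10 of them with the opposite sign, 1190 were lost and 279 could not be tested for want of a length. Beyond that setting, the part of length in the results was not tested.

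**Figure D2:**
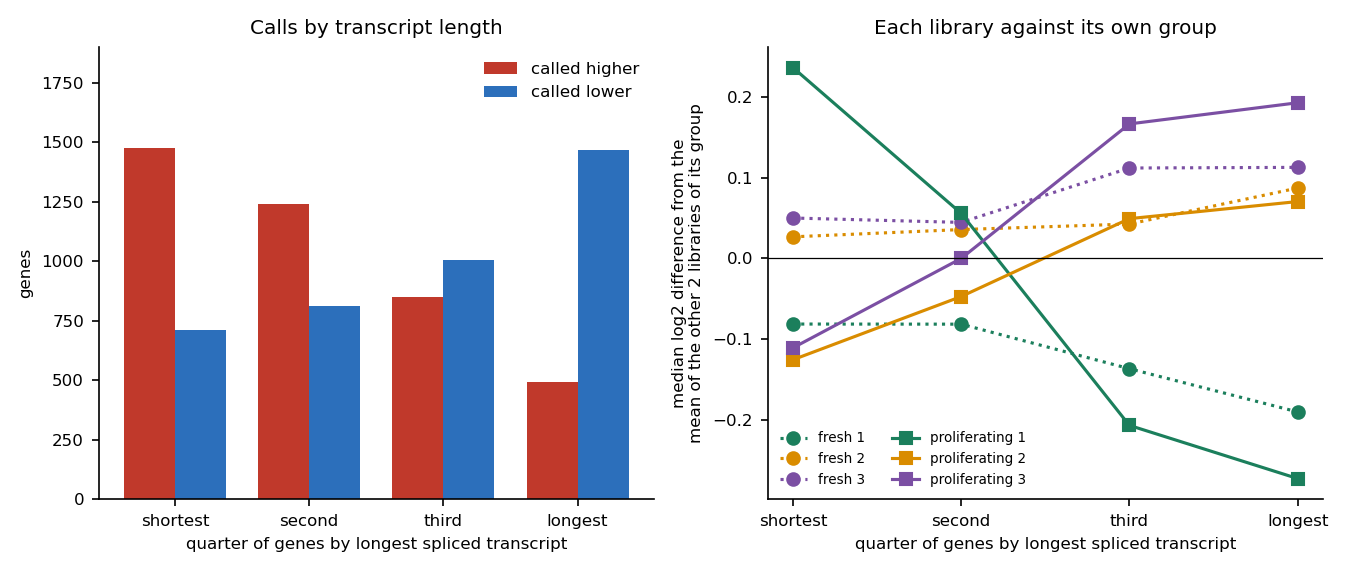
Left, number of genes called higher or lower in each of 4 classes of genes by longest spliced transcript; right, median log2 difference of each library from the mean of the other 2 libraries of its group. Calls run from 1474 higher and 712 lower in the shortest to 493 and 1467 in the longest class, and proliferating replicate 1 falls from 0.24 to -0.27.

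The first genes to set out are those of the sort. Itga7, the integrin that the sort selected for, was not called, at 24.9, 48.9 and 72.8 FPKM in fresh and 15.3, 48.5 and 57.9 in proliferating libraries. Vcam1, which it selected against, was not called either, at 24.9, 23.4 and 18.5 FPKM in fresh and 19, 28.8 and 28.9 in proliferating libraries. Both overlapped between the groups. Ly6a (Sca1) fell 2.91-fold from low levels, and Pecam1 (CD31), at 12.5, 12 and 19.7 FPKM in fresh and 0.312, 0.621 and 0.333 in proliferating libraries, fell 10.8-fold. Ptprc (CD45) was at most 0.148 FPKM in the fresh libraries and listed at 0 in the proliferating ones.

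Of 19 cyclins, kinases and E2F factors of G1, 16 rose and 3 fell, with a list median of 2.00. Cdk4, the kinase that starts the passage to S phase, stood at 52.3, 48.6 and 55.1 FPKM in fresh and 562, 527 and 505 in proliferating libraries, a 10.1-fold rise (log2 change 3.33 ± 0.14, SE, adjusted p = 1.78e-07). Its 3 D cyclin partners did not move together. Ccnd1 was at 13.9, 8.53 and 8.72 FPKM in fresh and 107, 102 and 99.4 in proliferating libraries, and Ccnd3 at 61, 54 and 59.8 FPKM in fresh and 395, 399 and 508 in proliferating libraries. Ccnd2 went the other way, at 70.7, 63.6 and 73.5 FPKM in fresh and 12.6, 6.33 and 7.06 in proliferating libraries, a 7.54-fold fall (adjusted p = 7.73e-06). For each of the 3, every proliferating library lay on one side of every fresh one. Mybl2, a transcription factor of late G1 and G2, was almost absent from fresh SMMC, at 0.473, 0.545 and 0 FPKM, and reached 32.3, 34.7 and 32.9. Myc, which drives growth in dividing cells, nevertheless fell, from 83, 76.6 and 67.5 to 23.1, 21.8 and 16.7 FPKM (3.58-fold, adjusted p = 2.04e-05).

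The inhibitors that hold cyclin kinases in check, listed with pocket proteins, had 4 of 10 genes higher, 4 lower and 2 not called. These counts lie near the shares of all tested genes, 35.8% higher and 35.2% lower. Cdkn1c (p57), the inhibitor of resting and differentiating cells, stood at 257, 159 and 160 FPKM in fresh and 3.76, 1.17 and 7.22 in proliferating libraries, a 42.8-fold fall (log2 change -5.42 ± 0.43, SE, adjusted p = 5.39e-06). Cdkn1b (p27) fell 1.96-fold from low levels. Cdkn1a (p21), the inhibitor under p53, was the most abundant of them and did not pass the test, at 340.3, 364 and 314 FPKM in fresh and 298, 176 and 285 in proliferating libraries (adjusted p = 0.0771, and 0.0333 without proliferating replicate 1), although its groups did not overlap. Cdkn2b (p15) rose, from 8.39, 5.51 and 4.12 to 28.9, 17.9 and 32.6 FPKM. Cdkn2a was under the level for testing, at 0, 0 and 0.0385 FPKM in fresh and 0.691, 0.48 and 1.11 in proliferating libraries. Of the pocket proteins that repress E2F genes, Rbl2, known from resting cells, fell 3.89-fold and Rbl1, known from cycling cells, rose 5.3-fold.

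All 28 genes of the replication origin and fork rose at least 2-fold, with a median log2 change of 3.60. Mcm5, a subunit of the replicative helicase, stood at 1.94, 1.36 and 2.05 FPKM in fresh and 135, 138 and 119 in proliferating libraries, a 47.5-fold rise. Another subunit, Mcm3, rose 31.1-fold and the loading factor Cdc6 14-fold, whereas Pcna, the sliding clamp, rose 3.26-fold from a level of 10.4, 10.3 and 9.37 FPKM. Of 24 genes of nucleotide supply 22 rose. Tk1, thymidine kinase, went from 1.08, 1.3 and 0.858 to 81.9, 63.4 and 63.5 FPKM, and Nme1, a nucleoside diphosphate kinase, from 79.2, 94.1 and 58.5 to 1030, 735 and 672. Rrm2b, the ribonucleotide reductase subunit used outside S phase, was the member that fell, 1.79-fold (adjusted p = 0.0138, and 0.0598 with the length trend removed). Impdh2, of guanine nucleotide synthesis, was not called and its groups overlapped.

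All 30 spindle, kinetochore and cytokinesis genes rose at least 2-fold, with a median log2 change of 4.41, and their summed level went from 34.2 to 36.6 FPKM in fresh to between 1828 and 2015 FPKM in proliferating libraries. Cdc20, which activates the anaphase-promoting complex, had the smallest adjusted p among them, at 6.63, 5.63 and 5.68 FPKM in fresh and 312, 263 and 244 in proliferating libraries, a 39.1-fold rise (log2 change 5.29 ± 0.17, SE, adjusted p = 5.18e-08). Aurkb, the kinase of the chromosomal passenger complex, stood at 1.52, 1.88 and 0.149 FPKM in fresh and 171, 168 and 165 in proliferating libraries, and its partner Cdca8 (borealin) at 0.73, 2.04 and 0.11 FPKM in fresh and 149, 135 and 114 in proliferating libraries. No fresh library came near a proliferating one in any of the 3. Top2a, which untangles chromosomes, was at 23, 61 and 66.7 FPKM in the proliferating libraries, lowest in replicate 1, and at 0.476, 0.672 and 0.0751 in the fresh ones.

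Late cell cycle genes are known for 2 promoter elements, the cell cycle homology region, searched as TTTGAA, and the CCAAT box, searched as CCAAT, each on both strands. Promoter windows of RefSeq, build GRCm38.p6, from 250 bases before to 50 after the start were found by symbol for 24 of the 30 spindle genes. Of these 24, 18 (75%) held TTTGAA, against 18.1% of all 27025 windows and 11.3% of the 8814 windows of tested genes. For CCAAT it was 17 (70.8%), against 37.9% and 38.6%. Sequences shown here and below are those of the called list member with a match and the smallest adjusted p, so they were chosen with values known. The 250 bases before the start of Cdc20 (chr4:118437344-118437593, minus strand) hold both. Those of Mcm5 (chr8:75109259-75109508, plus strand) hold 3 matches, a pair of them overlapping, of the E2F letters TTNGCGC. The E2F letters were found in 8 of 22 windows of the replication list (36.4%), against 6.47% of all windows and 11.5% of those of tested genes. Capitals mark the matches on either strand.
Cdc20: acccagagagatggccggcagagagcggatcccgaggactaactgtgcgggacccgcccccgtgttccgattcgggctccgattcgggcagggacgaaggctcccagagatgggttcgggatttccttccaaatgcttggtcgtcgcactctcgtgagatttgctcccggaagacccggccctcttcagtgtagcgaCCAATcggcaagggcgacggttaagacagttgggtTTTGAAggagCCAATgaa
Mcm5: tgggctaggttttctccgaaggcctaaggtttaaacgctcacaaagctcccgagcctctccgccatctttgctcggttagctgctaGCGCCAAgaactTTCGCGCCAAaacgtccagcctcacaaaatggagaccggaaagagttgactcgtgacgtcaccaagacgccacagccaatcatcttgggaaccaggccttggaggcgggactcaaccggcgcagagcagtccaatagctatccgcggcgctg

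Of 15 checkpoint and repair genes 12 rose and 3 were not called. Exo1, a nuclease of mismatch repair and recombination, stood at 0, 0.142 and 0.0364 FPKM in fresh and 42, 51.1 and 41.5 in proliferating libraries. Trp53 rose 3.67-fold while its target Mdm2 did not pass the test, at 5.86, 5.7 and 5.28 FPKM in fresh and 2.19, 7.89 and 9.2 in proliferating libraries, where proliferating replicate 1 lay below all 3 fresh libraries and the other two above. Among 18 genes that copy chromatin and DNA methylation 14 rose and 4 fell. The maintenance factors Uhrf1 (22.9-fold) and Dnmt1 (3.46-fold) rose, and the de novo methyltransferase Dnmt3a fell, at 15.1, 17.2 and 14.7 FPKM in fresh and 0.947, 1.22 and 2.77 in proliferating libraries. Tet3, which oxidises methylated cytosine, fell 5.74-fold. Ezh2, the Polycomb methyltransferase of dividing cells, rose 3.36-fold and Ezh1, its counterpart in resting cells, fell 2.81-fold (adjusted p = 0.00108).

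In ribosome biogenesis 16 of 19 genes rose and 3 were not called, with a median log2 change of 1.55. Npm1, a nucleolar chaperone of ribosome assembly, stood at 415, 347 and 256 FPKM in fresh and 2963, 2500 and 2262 in proliferating libraries. Polr1b, a subunit of RNA polymerase I, passed narrowly (adjusted p = 0.0492) with overlapping groups: proliferating replicate 1 was at 8.06 and the other two at 39.9 and 32.4 FPKM, against 9.51, 10.3 and 6.85 in fresh. Its call was lost when any library other than proliferating replicate 1 was left out, with adjusted p from 0.0874 to 0.170. Messages of 85 ribosomal protein genes made up 2.85% to 3.89% of all FPKM in fresh and 9.90% to 11.8% in proliferating libraries. The share was highest in proliferating replicate 1 and was not corrected for transcript length, so the part of length in it was not tested. Of 16 proteasome core genes 14 rose, among them Psma4 (5.11-fold), Psma5 (5.04-fold) and Psmb5 (4.73-fold). They are short, with a list median of 1275 bases against 3374 for all genes. With the length trend removed 13 rose and 2 fell, and the median log2 change was 1.34 in place of 1.93. Psmb8, the immunoproteasome form of Psmb5, fell from 18.9, 15 and 14.8 to 0.509, 0.88 and 0.586 FPKM.

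Of 20 glycolysis genes 8 rose, 9 fell and 3 were not called, near the 35.8% higher and 35.2% lower of all tested genes. Eno3, the muscle enolase, stood at 7.34, 11.3 and 11.1 FPKM in fresh and 974, 804 and 744 in proliferating libraries, a 77.7-fold rise (adjusted p = 5.18e-08), while Eno2, the neuronal form, fell to 0.0337, 0.223 and 0 FPKM from 4.09, 6.89 and 9.22. Likewise the lactate dehydrogenase subunit Ldha rose 4.46-fold and Ldhb fell 1.9-fold. Hexokinase Hk2 fell 6.06-fold, and the glucose carrier Slc2a1 3.53-fold. In the serine pathway Phgdh rose 12.3-fold and Psat1 15.1-fold, and asparagine synthetase Asns 7.15-fold, yet Atf4, the stress factor known to drive these 3 genes, fell from 224, 254 and 237 to 106, 106 and 95.1 FPKM (adjusted p = 5.08e-05). Ddit3 (CHOP), another of its targets, stood at 41, 63.9 and 80.5 FPKM in fresh and 2.71, 1.86 and 2.26 in proliferating libraries. In that list of 18 genes, 4 rose, 8 fell and 6 were not called. Of 19 genes of fatty acid and mitochondrial oxidation 8 rose, 3 fell and 8 were not called, with a median log2 change of 0.00, and with the length trend removed 7 rose and 6 fell. Idh3a of the citrate cycle rose 9.06-fold and the fatty acid carrier Cd36, abundant in capillary and mural cells, fell from 85.4, 167 and 197 to 0.0602, 0.323 and 0.614 FPKM.

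**Figure D3:**
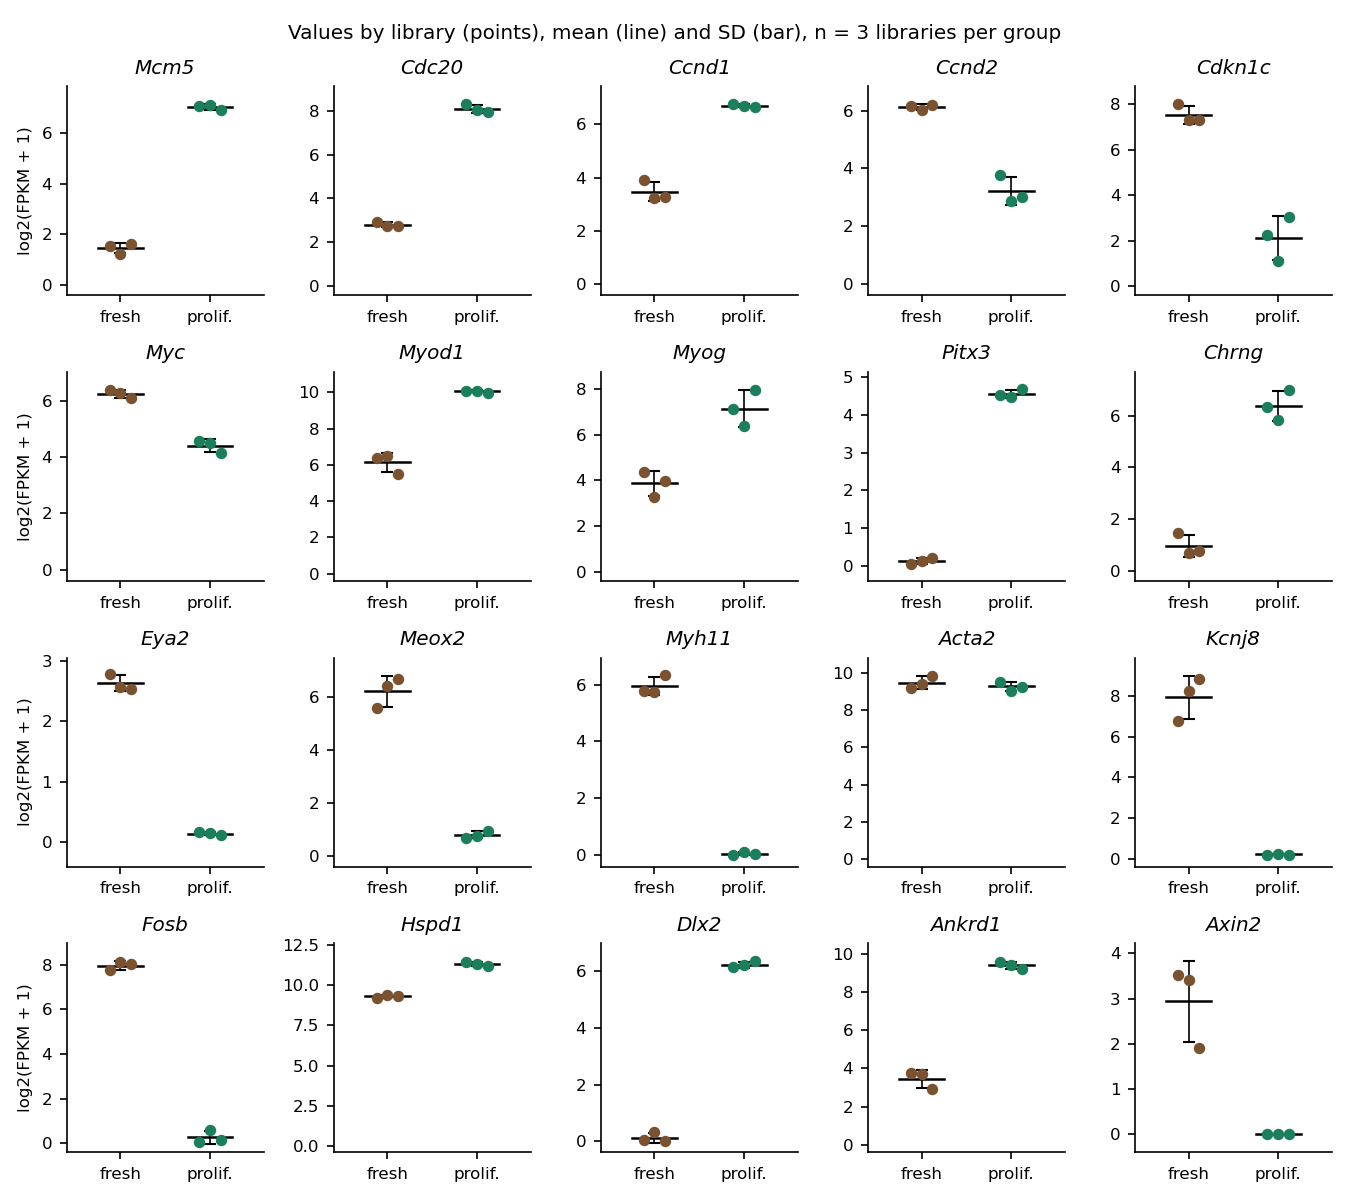
Log2(FPKM + 1) of 20 genes in each library (points), with the group mean (line) and SD (bar), n = 3 libraries per group. Ccnd1 and Ccnd2 move in opposite directions, Acta2 overlaps between groups, and Axin2 is listed at 0 in all 3 proliferating libraries.

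Of 20 myogenic regulators tested 11 rose, 6 fell and 3 were not called. Myod1, which commits cells to the lineage, stood at 81.9, 90.04 and 44.9 FPKM in fresh and 1097, 1094 and 1016 in proliferating libraries. Myog, which starts terminal differentiation, stood at 19.5, 8.64 and 14.6 FPKM in fresh and 136, 81.1 and 247 in proliferating libraries, a 9.68-fold rise (log2 change 3.27 ± 0.40, SE, adjusted p = 7.72e-05), highest in proliferating replicate 3. Pitx3, a homeobox gene of embryonic and fetal muscle, stood at 0.0339, 0.0853 and 0.153 FPKM in fresh and 22.2, 21.2 and 24.7 in proliferating libraries. Myf5 went from 3.86, 9.23 and 5.13 to 38.4, 64.5 and 70.5 FPKM, against a mean of 1943 FPKM in the MuSC libraries. Pax7, which marks muscle stem cells, was low throughout, at 0.367, 1.32 and 1.83 FPKM in fresh and 1.42, 4.74 and 4.31 in proliferating libraries. It was called higher (adjusted p = 0.0408) with overlapping groups, but the call was lost without fresh replicate 1 or 2 or proliferating replicate 2 or 3, with adjusted p from 0.0758 to 0.148. In MuSC it stood at 19.8 FPKM on average. Eya2, a transcriptional coactivator, fell to 0.122, 0.108 and 0.0907 FPKM from 5.85, 4.95 and 4.8, and Meox2, a homeobox gene of mesenchyme and vessel wall, to 0.617, 0.706 and 0.932 from 46.6, 84.2 and 103. Mef2c, a factor of muscle and smooth muscle, fell 2.93-fold (adjusted p = 0.00878, and 0.0568 with the length trend removed).

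Of 12 members tested of the acetylcholine receptor and its synapse, which muscle cells start to make before a nerve reaches them, 7 rose, 3 fell and 2 were not called. Chrng, the fetal subunit, stood at 1.71, 0.61 and 0.681 FPKM in fresh and 78.6, 56.2 and 127 in proliferating libraries, and Chrnd at 1.3, 0.255 and 0.725 FPKM in fresh and 29.8, 28.3 and 69.3 in proliferating libraries. Chrne, the subunit that replaces Chrng in adult muscle, was listed at 0 in all 6 libraries. Rapsn, which clusters the receptor, rose 14-fold and the agrin receptor kinase Musk 4.0-fold, whereas Agrn itself fell 3.4-fold and Utrn (utrophin), enriched at synapses, 3.98-fold.

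Among 22 tested sarcomere genes of embryonic and slow types 21 rose, with a median log2 change of 3.32, and 4 others were under 1 FPKM in all 6 libraries. Tnnt2, a troponin T of heart and immature muscle, stood at 10.3, 4.64 and 4.5 FPKM in fresh and 618, 453 and 596 in proliferating libraries, a 78.2-fold rise (adjusted p = 2.73e-07). Tnnc1, the slow troponin C, stood at 0.772, 1.19 and 1.08 FPKM in fresh and 162, 81.2 and 217 in proliferating libraries. Myh3, the embryonic myosin heavy chain, stood at 0.166, 0.333 and 0.449 FPKM in fresh and 14.6, 14.2 and 57.2 in proliferating libraries. In Tnnc1 and Myh3, as in the list's sum of 3748, 2779 and 5561 FPKM, proliferating replicate 3 was highest and replicate 2 lowest, and no fresh library reached them. Myom1, an M-band protein, was the member that fell, 4.2-fold from 2.61, 4.99 and 8.42 FPKM. Of 11 tested genes of adult fast fibres 7 rose and 4 were not called. Tnnt3, a fast troponin T, went from 11.6, 11.5 and 10.1 to 451, 259.9 and 595 FPKM. Ckm, muscle creatine kinase, stood at 5.15, 3.25 and 7.8 FPKM in fresh and 4.02, 1.33 and 6.92 in proliferating libraries with no call, and 11 more adult fast genes, among them Myh2 and Myh4, were too low to test. Of 8 transcripts taken as signs of adult myofibre debris, most of which are also members of the sarcomere lists, 5 rose and none fell, and Pvalb and Myh4 were too low to test.

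Of 19 genes of myoblast adhesion and fusion 8 rose, 6 fell and 5 were not called. Among all tested genes 35.8% were higher and 35.2% lower, shares near these. Tmem8c (myomaker) stood at 18.6, 10.8 and 13.6 FPKM in fresh and 186, 121 and 187 in proliferating libraries, and Gm7325 (myomixer, also called myomerger) at 0.0995, 0.616 and 0.77 FPKM in fresh and 22.5, 7.84 and 43.5 in proliferating libraries. Both were higher in every proliferating than in every fresh library. Cdh15, M-cadherin, rose 14.2-fold, and Boc, a receptor that promotes myogenesis, fell 9.37-fold. Of 16 muscle stem cell markers 5 rose, 8 fell and 3 were not called, and the list summed to between 1205 and 1416 FPKM in fresh, between 466 and 721 in proliferating and 28136 and 40454 in the 2 MuSC libraries. Most of the MuSC sums was Sdc4, a syndecan, at 25697 and 36853 FPKM there, against 515, 511 and 424 in fresh and 86.6, 97 and 101 in proliferating libraries. Chodl, a membrane lectin, fell from 324, 409 and 261 to 0.0361, 0.244 and 0.139 FPKM. In the 2 MuSC libraries Chodl stood at 140 and 127 FPKM, below every fresh SMMC library. Calcr, the calcitonin receptor of resting stem cells, fell to 0, 0.194 and 0 FPKM from 3.44, 6.5 and 4.26. Among the 5 that rose were Myf5 (8.46-fold) and Des (5.45-fold).

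Myogenic factors of the Myod1 family bind E-boxes, searched here as CAGCTG on both strands and found in 16.1% of all RefSeq windows and 15% of those of tested genes. Of 26 genes in the embryonic and slow sarcomere list, 25 had a window and 9 of those (36%) held the letters. In the acetylcholine receptor list, 10 of 14 genes had a window and 4 of those (40%) held them. The members with a match include genes too low to test, Myl2 in the sarcomere list and Chrne in the receptor list. The 250 bases before the start of Tnnt2 (chr1:135836084-135836333, plus strand) and of Chrna1, the receptor subunit present in fetal and adult muscle (chr2:73580339-73580588, minus strand), hold 2 matches each, in capitals. Chrna1 was at 7.26, 4.07 and 1.78 FPKM in fresh and 689.5, 564 and 563 in proliferating libraries.
Tnnt2: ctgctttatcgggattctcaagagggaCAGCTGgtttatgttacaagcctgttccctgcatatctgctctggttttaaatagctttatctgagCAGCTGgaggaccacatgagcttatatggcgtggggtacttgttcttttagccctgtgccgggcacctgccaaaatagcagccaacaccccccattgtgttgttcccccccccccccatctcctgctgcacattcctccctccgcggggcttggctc
Chrna1: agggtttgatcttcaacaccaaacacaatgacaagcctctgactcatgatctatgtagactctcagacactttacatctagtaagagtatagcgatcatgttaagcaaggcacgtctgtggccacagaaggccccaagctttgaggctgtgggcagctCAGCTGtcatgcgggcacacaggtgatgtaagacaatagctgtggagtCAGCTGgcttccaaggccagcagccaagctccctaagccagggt

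Of 21 genes of the contractile apparatus 17 fell, 3 rose and 1 was not called, with a median log2 change of -1.80. Myh11, the smooth muscle myosin heavy chain, stood at 53.5, 52.9 and 78.9 FPKM in fresh and 0.0104, 0.0799 and 0.0391 in proliferating libraries, and Mylk, the kinase that switches it on, at 86.6, 110.4 and 156 FPKM in fresh and 0.969, 0.458 and 0.0459 in proliferating libraries. Cnn1 (calponin) fell 20.4-fold and Tagln (SM22) 7.4-fold, the last still at 61, 43.3 and 50.9 FPKM. Acta2, the smooth muscle actin that early skeletal myoblasts also make, was not called, at 567, 678 and 907 FPKM in fresh and 734, 518 and 606 in proliferating libraries (adjusted p = 0.406). With the length trend removed its log2 change was -0.68 (adjusted p = 0.00769). The members that rose were Cnn2, Tagln2 and Des, and Des (desmin, shared with skeletal muscle) stood at 50.2, 57.4 and 42.2 FPKM in fresh and 225, 278 and 329.7 in proliferating libraries.

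Regulators of the smooth muscle state fell in 14 of 22 cases, 1 rose and 7 were not called. The member that rose was Snai2, 1.9-fold (adjusted p = 0.0158). With the length trend removed 12 of 20 fell. Ebf1, a factor of mural and stromal cells, stood at 34.7, 56.9 and 67.5 FPKM in fresh and 2.97, 2.93 and 1.24 in proliferating libraries, and Foxs1, a pericyte factor, at 19.7, 27 and 29.6 FPKM in fresh and 2.9, 0.872 and 0.641 in proliferating libraries. Srf, the factor that binds smooth muscle and immediate early promoters, did not pass the test, at 0.869, 1.38 and 1.65 FPKM in fresh and 2.17, 1.53 and 1.33 in proliferating libraries. The CArG box that it binds, searched on both strands, was found in 1.57% of all windows and 1.36% of those of tested genes. It was found in 2 of 17 windows of the contractile list, those of Myl9 and Cnn2, and in 1 of 17 of the immediate early list, that of Zfp36. The bases before the start of Myl9 (chr2:156775214-156775463, plus strand), a regulatory light chain, and Zfp36 (chr7:28379229-28379478, minus strand), which shortens the life of cytokine messages, are shown with the box in capitals. Myl9 fell from 95.2, 118 and 169.7 to 45.5, 37 and 27.5 FPKM and Zfp36 from 248, 336 and 369.7 to 2.22, 2.2 and 0.855, both without overlap. Cnn2, a calponin found in many cell types, rose from 47, 69.98 and 81.5 to 151, 125 and 129.8 FPKM. Myl9, Zfp36 and Cnn2 are named for the match, after their values were seen.
Myl9: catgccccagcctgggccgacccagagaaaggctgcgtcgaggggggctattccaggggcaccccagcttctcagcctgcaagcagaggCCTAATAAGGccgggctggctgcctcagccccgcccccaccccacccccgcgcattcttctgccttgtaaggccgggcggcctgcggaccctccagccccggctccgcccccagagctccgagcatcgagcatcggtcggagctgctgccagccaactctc
Zfp36: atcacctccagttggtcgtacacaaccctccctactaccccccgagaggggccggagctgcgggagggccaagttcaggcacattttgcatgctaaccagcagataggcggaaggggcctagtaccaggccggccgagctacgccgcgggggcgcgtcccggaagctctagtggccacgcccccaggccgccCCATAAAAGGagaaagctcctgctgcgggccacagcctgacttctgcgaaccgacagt

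All 21 pericyte genes tested fell at least 2-fold, with a median log2 change of -5.15, and their sum went from 1397, 2503 and 3254 FPKM in fresh replicates 1, 2 and 3 to between 41.7 and 46.7 in proliferating libraries. Kcnj8, a pore subunit of the pericyte potassium channel, stood at 107, 298 and 450.4 FPKM in fresh and 0.145, 0.185 and 0.144 in proliferating libraries, and its regulatory partner Abcc9 at 104, 249 and 321 FPKM in fresh and 0.0362, 0.15 and 1.87 in proliferating libraries. Pdgfrb, the receptor that recruits pericytes to vessels, stood at 106, 175 and 231 FPKM in fresh and 2.56, 1.66 and 1.08 in proliferating libraries. In each of the 3, fresh replicate 3 was highest and fresh replicate 1 lowest, and all fresh libraries lay far above the cultured ones. Cspg4 (NG2) kept more of its level, at 4.28, 3.73 and 4.43 FPKM after 19.6, 25.4 and 31.4.

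Tenocyte markers fell in 14 of 16 cases, with a median log2 change of -7.67 and a sum of 12605 to 23273 FPKM in fresh and 176 to 189.6 in proliferating libraries. Mkx, a homeobox factor of tendon, stood at 67.2, 58.3 and 31.4 FPKM in fresh and 0.901, 4.69 and 3.14 in proliferating libraries. Scx, the factor that specifies tendon, was low in both groups and not called, at 2.91, 1.91 and 2.11 FPKM in fresh and 2.36, 2.67 and 2.41 in proliferating libraries, and Wisp1, a matricellular protein, stood at 116, 109.5 and 66 FPKM in fresh and 129, 122 and 94.4 in proliferating libraries with no call. Prelp, a proteoglycan of connective tissue, fell from 718, 632 and 442 to 0.0979, 0.542 and 0.304 FPKM, and Cilp, a cartilage matrix protein, from 504, 427 and 324 to 0.14, 0.324 and 0.164. Fresh replicate 1 was the highest fresh library in both, whereas it was the lowest for the 3 pericyte genes.

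Markers of other cell types also fell, and their part in the results was not tested. The sort against Sca1, CD31 and CD45 is meant to remove fibro-adipogenic, endothelial and blood cells, and it has no marker against Schwann cells. Of 19 Schwann and nerve support genes 18 fell, the sum going from between 1161 and 1362 to between 65.4 and 85.9 FPKM. Of the fresh sums, Pmp22 alone held 622, 472 and 437 FPKM. Ngfr was the member not called (adjusted p = 0.119). Sox10, the factor of glia, stood at 23.4, 17.7 and 20.01 FPKM in fresh and 0.996, 0.376 and 0.931 in proliferating libraries. All 15 tested fibro-adipogenic genes fell, with sums of 2887 to 5049 and 26.1 to 45.7 FPKM. A single member, at 1819 to 3528 FPKM, made up most of the sum in each fresh library. Pdgfra, the defining receptor of these cells, stood at 10.8, 4.78 and 6.26 FPKM in fresh and 0.292, 0.115 and 0.0455 in proliferating libraries. Of 14 endothelial genes 13 fell, with sums of 214 to 336.5 and 29.0 to 33.6 FPKM, and Cdh5 stood at 3.29, 4.34 and 2.65 FPKM in fresh and 0.0522, 0 and 0.0225 in proliferating libraries. Only 6 of 18 blood cell genes were high enough to test and all 6 fell. A gene present in fresh libraries only could enter the test only as lower, so this count does not bear on the direction. The same holds for such genes in the Schwann, fibro-adipogenic, endothelial and pericyte counts. Lyz2, of macrophages and neutrophils, stood at 515, 156 and 99 FPKM in fresh and 0, 0.121 and 0.0559 in proliferating libraries, and made up most of the list's sum of 528, 188 and 124 FPKM in fresh replicates 1, 2 and 3, whereas Ptprc, S100a8 and C1qa were under 2 FPKM throughout.

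**Figure D4:**
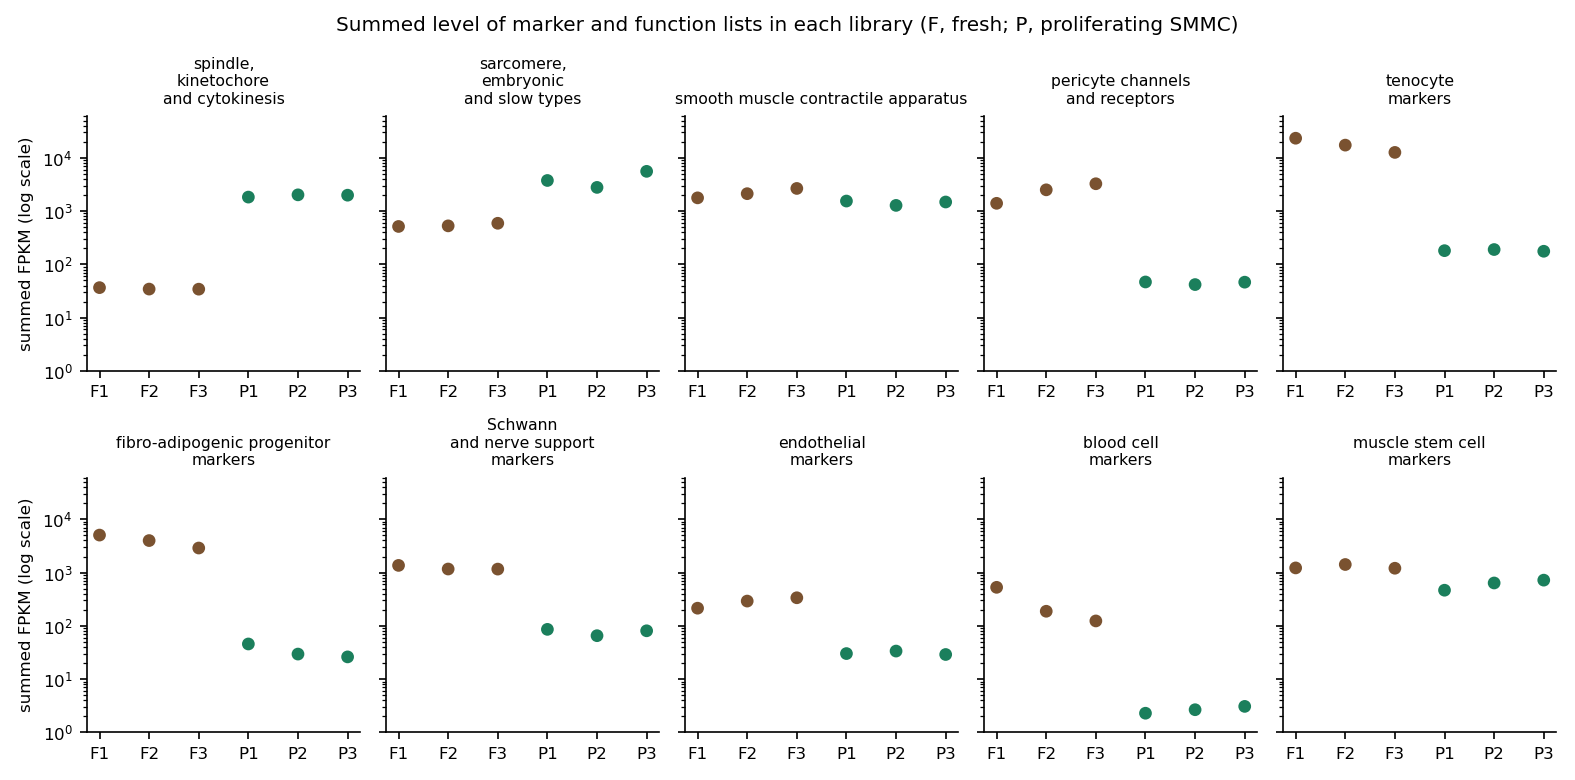
Summed FPKM (log scale) of 10 gene lists in each fresh (F) and proliferating (P) library. The spindle sum rises from between 34.2 and 36.6 to between 1828 and 2015 FPKM, and the pericyte sum falls from between 1397 and 3254 to between 41.7 and 46.7.

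Matrix genes fell with the connective tissue markers. Of 16 tested collagens 15 fell, with a median log2 change of -4.50. Col1a1 stood at 1833, 1169 and 1054 FPKM in fresh and 2.88, 4.06 and 5.77 in proliferating libraries, highest in fresh replicate 1, and Col6a1 at 406, 298 and 269 FPKM in fresh and 0.369, 0.241 and 0.716 in proliferating libraries. Col3a1 fell less far, 16.1-fold, and Col8a1 was not called, with overlapping groups (adjusted p = 0.0119 without fresh replicate 3). Of 19 basement membrane genes 17 fell. Lamb2, a laminin chain of muscle and synapse, stood at 534, 454 and 430.4 FPKM in fresh and 13.8, 13.5 and 22.7 in proliferating libraries, while Lamb1 stood at 50.6, 60.6 and 57.5 FPKM in fresh and 43.8, 65 and 56.3 in proliferating libraries with no call and, with the length trend removed, was called higher (adjusted p = 0.0147). Sparcl1, a matricellular protein, fell 532-fold and its relative Sparc 6.8-fold, the latter still at 196, 169.6 and 170.3 FPKM. Collagen and basement membrane genes are long, with list medians of 6024 and 6046 bases against 3374 for all genes, and with the length trend removed 14 of 16 and 15 of 19 fell.

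Of 18 integrin subunits 13 fell, 1 rose and 4 were not called. Itga1, a collagen receptor, stood at 32.6, 49.2 and 61.6 FPKM in fresh and 0.363, 0.297 and 0.77 in proliferating libraries, and Itga3, a laminin receptor and the member that rose, at 0.506, 0.324 and 0.505 FPKM in fresh and 2.12, 3.67 and 3.64 in proliferating libraries. Itgb1, the common partner of both, stood at 408, 444 and 526 FPKM in fresh and 93.5, 331 and 373 in proliferating libraries and was not called (adjusted p = 0.0696). Proliferating replicate 1 lay well below the others, and without proliferating replicate 2 or 3 the adjusted p was 0.0432 or 0.0222. With the length trend removed, 9 subunits fell in place of 13. Among 22 matrix proteases and inhibitors 15 fell and 1 rose. Mmp2, a gelatinase, fell 66.3-fold, its inhibitor Timp3 84.9-fold and the plasminogen activator Plat 111-fold. Plaur, the urokinase receptor, rose from 39.9, 25.3 and 14.6 to 81.8, 61.8 and 52.3 FPKM (adjusted p = 0.00511).

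Of 21 immediate early genes 19 fell, with a median log2 change of -4.20. Fosb stood at 214, 276 and 257 FPKM in fresh and 0.0419, 0.497 and 0.12 in proliferating libraries, and Atf3 at 351, 489 and 578 FPKM in fresh and 3.45, 2.71 and 2.6 in proliferating libraries. Junb fell 9.85-fold and kept 129, 91.5 and 73.2 FPKM. Fosl1, a Fos relative with a slower course, was not called, at 18.4, 20.2 and 10.9 FPKM in fresh and 15.6, 12.3 and 13.7 in proliferating libraries (adjusted p = 0.0289, lower, with the length trend removed). Jund was not called either, with fresh replicate 3 at 28.2 FPKM and the other 5 libraries between 0.179 and 1.52.

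Of 16 heat shock genes 10 fell, 5 rose and 1 was not called, and with the length trend removed 9 fell and 3 rose. Hspa1b, an inducible HSP70, stood at 649.9, 1302 and 1682 FPKM in fresh and 1.16, 1.31 and 1.1 in proliferating libraries, lowest among fresh libraries in replicate 1. It shares reads with its near-identical copy Hspa1a, so their split is uncertain. Hspa8, the constitutive HSP70, stood at 2773, 2826 and 2515 FPKM in fresh and 2965, 2612 and 2558 in proliferating libraries and was not called (adjusted p = 0.99). Hspd1, the chaperone of the mitochondrial matrix, rose from 596, 657 and 643 to 2802, 2497 and 2306 FPKM (4.0-fold), and its cofactor Hspe1 2.31-fold (adjusted p = 0.0527 with the length trend removed). Hspb1, a small heat shock protein, fell 4.03-fold and Dnajb1, an HSP70 partner, 12.4-fold.

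Of 22 genes of NF-kB feedback, chemokines and cytokines 20 fell, with a median log2 change of -4.92. Il6 stood at 372, 396 and 424 FPKM in fresh and 0.132, 0.30 and 0.155 in proliferating libraries, and Icam1, an adhesion molecule for leukocytes, at 648, 548 and 483 FPKM in fresh and 0.882, 0.439 and 0.466 in proliferating libraries. Nfkbia, the inhibitor that NF-kB itself induces, fell 21.2-fold. Ccl11, a chemokine for eosinophils, stood at 792, 958 and 1039 FPKM in fresh and 1.03, 1.19 and 0.523 in proliferating libraries, and Ccl2, a chemokine for monocytes, at 1210, 981 and 1060 FPKM in fresh and 13.8, 3.31 and 2.49 in proliferating libraries. Cxcl12, the ligand of Cxcr4, fell only 2.36-fold (adjusted p = 0.0214, and 0.0908 with the length trend removed), and missed the threshold without fresh replicate 2 or 3 or proliferating replicate 1, at 0.0784, 0.0782 and 0.0759. Csf1, the macrophage growth factor, rose 2.35-fold and Ccl25 2.66-fold. All 22 MHC class I and interferon genes tested fell. B2m stood at 565, 549 and 486 FPKM in fresh and 124, 89.9 and 93.8 in proliferating libraries, H2-K1, one of several similar class I genes, fell 14.4-fold, and Irf1 stood at 83.7, 124 and 176 FPKM in fresh and 2.19, 2.45 and 2.37 in proliferating libraries. The complement inhibitor Serping1 fell from 460, 425 and 405 to 0.476, 0.497 and 0.351 FPKM.

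In Notch signalling 4 of 14 genes rose and 9 fell. Among receptors, Notch3, the receptor of mural cells, stood at 99.3, 206 and 267 FPKM in fresh and 0.411, 2.38 and 4.85 in proliferating libraries, and Notch1 fell 3.9-fold. Among ligands, Jag1 fell 7.3-fold, while Jag2 stood at 0.89, 0.151 and 1.53 FPKM in fresh and 21.4, 23.2 and 29.6 in proliferating libraries and Dll1 rose 5.29-fold. Among targets Heyl fell 24.1-fold and Nrarp, a feedback inhibitor, from 33.8, 56.5 and 84.3 to 0.678, 0.11 and 0.354 FPKM, and Hes1 was not called, although it passed without fresh replicate 1 or proliferating replicate 1 (adjusted p = 0.00845 and 0.0474). Hes6, which opposes Hes1 and is a known target of myogenic factors, stood at 12.9, 17.4 and 15.6 FPKM in fresh and 1603, 1123 and 1379 in proliferating libraries, a 83.6-fold rise (adjusted p = 3.16e-08).

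In the insulin-like growth factor list 9 of 16 genes fell and 2 rose, and with the length trend removed 8 fell and 4 rose. H19, an imprinted non-coding RNA next to Igf2, stood at 1.52, 2.97 and 2.58 FPKM in fresh and 293, 272 and 354 in proliferating libraries, a 92.7-fold rise, while Igf2 itself stood at 4.22, 6.11 and 8.07 FPKM in fresh and 8.96, 8.98 and 26.4 in proliferating libraries and missed the threshold (adjusted p = 0.0503). It passed with the length trend removed (log2 change 1.33, adjusted p = 0.0073) and without proliferating replicate 1 or 2 (adjusted p = 0.0336 and 0.0355). Binding proteins went both ways: Igfbp5 fell 73.2-fold and Igfbp6 186-fold, and Igfbp2 rose from 1.53, 1.13 and 1.12 to 43.1, 36.2 and 37 FPKM. The ligand Igf1 fell to 0.083, 0.0143 and 0.0452 FPKM from 15, 9.88 and 6.09. Of 13 imprinted genes tested 3 rose (H19, Peg3 and Mest), 6 fell and 4 were not called, and with the length trend removed 5 rose and 6 fell. Mest stood at 65.5, 49 and 48 FPKM in fresh and 197, 302 and 654 in proliferating libraries, with the 3 proliferating libraries spread more widely than the fresh.

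In the BMP list 4 of 20 genes rose and 12 fell. Of the ligands, Bmp2 stood at 14.9, 14 and 17.9 FPKM in fresh and 0.0753, 0.0117 and 0 in proliferating libraries, and Bmp4 fell 7.76-fold. Id1, an inhibitor of helix-loop-helix factors that BMP induces, stood at 52.2, 54.6 and 58.4 FPKM in fresh and 347, 315 and 242 in proliferating libraries, Id2 rose 2.58-fold and Id3 was not called, with a log2 change of -0.43 and an adjusted p of 0.0277 once the length trend was removed. In the TGF-beta and YAP list 13 of 19 fell and 4 rose. Ctgf and Ankrd1, both known YAP targets, moved apart: Ctgf stood at 205, 150.2 and 157 FPKM in fresh and 12.3, 9.88 and 11.5 in proliferating libraries and Ankrd1, which muscle factors also induce, at 12.3, 12 and 6.56 FPKM in fresh and 768, 675 and 595 in proliferating libraries. Of 18 Wnt genes 14 fell. Axin2, a general target of the pathway, stood at 10.4, 9.58 and 2.73 FPKM in fresh libraries and was listed at 0 in all 3 proliferating ones, and Sfrp5, a secreted antagonist, fell 233-fold. Of 21 FGF and MAPK genes 13 fell and 3 rose. Fgfr1 fell 6.9-fold, the phosphatase Dusp1 18.6-fold and the ERK phosphatase Dusp6 2.99-fold. Met, the receptor of hepatocyte growth factor, rose 3.18-fold (adjusted p = 0.0167), at 16.7, 57.4 and 49.9 FPKM in the proliferating libraries. Its adjusted p was 0.0635 without fresh replicate 3 and 0.0600 and 0.0513 without proliferating replicates 2 and 3.

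Of 18 bone and neural type factors 8 rose, 8 fell and 2 were not called. Such counts lie near the shares of all tested genes, 35.8% higher and 35.2% lower. Dlx2, a homeobox gene of forebrain and face, stood at 0.0298, 0.247 and 0 FPKM in fresh and 69.5, 73.2 and 81.2 in proliferating libraries, and Sp7 (osterix), the factor of bone-forming cells, at 0.397, 0.789 and 0.0811 FPKM in fresh and 32.2, 49.2 and 47.8 in proliferating libraries. Neither was above 0.789 FPKM in any fresh library. Runx2, which acts before Sp7 in bone, rose 3.37-fold and Sox11 10.8-fold. Sox9, the cartilage factor, was not called. Hox genes were also near those shares of all tested genes, with 6 of 14 higher and 6 lower, and 9 more were too low to test. Those higher were Hoxa9, Hoxa10, Hoxa11, Hoxc9, Hoxc10 and Hoxc11, and those lower Hoxa5, Hoxb2, Hoxc6, Hoxc8, Hoxd8 and Hoxd9. Hoxa11 stood at 1.28, 1.61 and 3.73 FPKM in fresh and 9.36, 10.8 and 11 in proliferating libraries and Hoxb2 at 2.07, 3.81 and 5.03 FPKM in fresh and 0.571, 0.40 and 0.386 in proliferating libraries. With the length trend removed 3 rose and 7 fell.

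For some of these genes the levels in differentiating SMMC can be set beside those above, with no test. Sp7 stood at 0, 0.0553 and 0.259 FPKM in the 3 differentiating libraries and Dlx2 at 0.874, 3.08 and 2.47, all far below the proliferating ones, and both were listed at 0 in the 2 MuSC libraries. Cdkn1c, at 272, 129.9 and 45.6 FPKM, and Ccnd2, at 56.2, 99.1 and 43, were above every proliferating library. Col1a1 stood at 89.6, 69.9 and 6.26 FPKM and Kcnj8 at 0.0644, 0 and 0.0337, below every fresh library.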

How the data were processed

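Bulk polyA RNA-seq of sorted mouse muscle cells was used as the FPKM table deposited by the authors, 1 column per library. Per the submitters' processing notes, the tools of the series include HISAT2 2.1.0, SAMtools 1.3.1 and StringTie, with build mm10; their roles and settings are not given in the sources used here. FPKM keeps no read depth, so depth is unknown and no counting interval can be given. Another 4 columns belong to no sample and were not used. Genes with at least 1 FPKM in 3 or more of the 6 libraries were compared on log2(FPKM + 1) with limma 3.58.1 in R 4.3.3 (variance trend, 4 residual degrees of freedom, Benjamini-Hochberg adjustment over all tested genes, two-sided, threshold 0.05). A fold is that change on the linear scale. A permutation of 3 against 3 libraries cannot go below 0.1, so no single-gene permutation test was made.

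The comparison, the 44 gene lists and the genes named were chosen with earlier results of these data known. Named were the sort genes, ranks 9 to 20 of the non-overlapping increases and decreases with a mean of 10 FPKM or more in the higher group, up to 3 members of each list with the smallest adjusted p in its main direction, up to 2 in the other, its most abundant member without a call, and genes marked as central to a list. Lists are described by counts and medians only. Other pseudocounts, filters, scalings, fits and left-out libraries were tried, and the removal of a length trend was added after seeing the data. The fit was tested on simulated data in which far fewer genes changed than were called here, so that test does not cover a change this broad.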

Additional observations from a re-analysis of the deposited data

How the results depend on the processing

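No alternative changed the sign of a gene called both there and as reported, except 10 genes with the length trend removed, a setting chosen after seeing the data. A minimum of 10 FPKM left 6257 genes, of which 4975 were called, 1957 lower and 1601 lower by 2-fold or more; fewer genes were tested there. The other settings called 7869 to 8941 genes, and leaving out 1 library called 7540 to 8328, with 3840 to 4319 higher and 3700 to 4088 lower, and at 2-fold or more 3077 to 3235 higher and 3220 to 3468 lower. The median change of all genes moved to -0.16 with Rn45s left out and the columns rescaled to one total, 0.17 with quantile normalization and 0.45 at 10 FPKM. Of the genes named, 4 that were not called passed in the other direction elsewhere, Amotl2 at 0.46 without proliferating replicate 1 (from -0.29 to 0.46 over the left-out libraries), and Id3 at -0.43, Lamb1 at 0.51 and Nop58 at 0.99 with the length trend removed, on the log2 scale. Of 348 genes followed across settings, quantile normalization ended 7 calls, those of Cdkn1b and Rrm2b among them. It brought 13 genes past the threshold, among them Acta2, Cdkn1a, Hes1, Igf2, Itgb1, Scx and Srf. The cause was not tested.

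With the replicate number as a replicate block 8452 genes were called. Deviations of same-numbered fresh and proliferating libraries correlated at only 0.0908, 0.0439 and 0.0703 across genes, although each library correlated best with its own number. The labels do not state a pairing, and correlations this weak cannot tell whether the numbers pair the samples. Read depth is unknown, and with 3 libraries a group small changes cannot be told from no change.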
